A study of Mus musculus with 6 samples.

Results

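The genes examined were the 10 that encode the core of the microRNA and RNA interference machinery, namely Drosha, Dgcr8, Xpo5, Dicer1, Ago1, Ago2, Ago3, Ago4, Tnrc6a and Tnrc6b. They were selected by gene symbol among the 55357 genes of the count files, and all 10 were among the 21876 genes tested. Expression was measured by poly(A) RNA-seq in wild type mouse primary neuronal cultures, prepared from cortex and hippocampus of C57BL/6N embryos at E18. Cultures were transduced at 4 days in vitro (DIV4) with a pLVTHM lentivirus and collected at DIV14. The 3 shCtrl libraries came from cultures that received a scrambled short hairpin RNA (shRNA), and the 3 shPla2g4e libraries from cultures that received the same amount of virus carrying an shRNA called sh2, directed against Pla2g4e. Pla2g4e encodes a calcium-dependent N-acyltransferase, and the viral dose had been set to the smallest amount giving a partial loss of its transcript, so the cultures model a knockdown and not an absence.

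MicroRNAs are transcribed as long primary transcripts, which the Microprocessor, made of the RNase Drosha and its RNA-binding partner Dgcr8, cuts to hairpins in the nucleus. Exportin-5, encoded by Xpo5, carries the hairpins to the cytoplasm, where Dicer1 releases a short duplex and an Argonaute protein keeps one strand of it as a guide. The GW182 proteins, encoded by the Tnrc6 genes, bind Argonaute and recruit the enzymes that shorten and destroy the target mRNA. Neurons use the pathway at synapses and in dendrites, and a vector-encoded shRNA is itself a substrate of Exportin-5, Dicer and Argonaute. Both groups of cultures carried such a vector, so no library showed the pathway without one.

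The sh2 hairpin is the small RNA that this machinery handled in the shPla2g4e cultures, and its strands are shown because the seed of its antisense strand can be searched for in the mRNAs of the machinery itself. Capitals mark bases 2 to 8 of the antisense strand, the seed, and the stretch of the sense strand that pairs with them. The ends that Dicer leaves in the cell were not measured.
sh2 antisense strand: tTGGCCACcaccatcttcc
sh2 sense strand: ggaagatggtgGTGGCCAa
The seed site GTGGCCA was searched for, as read 5′ to 3′ on the mRNA strand alone, in the 3′ untranslated region (UTR) of every tested gene, taken from its longest coding transcript in GENCODE vM21. Ago2 and Tnrc6a held 1 site each, and the other 8 genes held none. The Ago2 site began at base 590 of a 3′ UTR of 11064 nt, and the Tnrc6a site at base 619 of 2345 nt. The surrounding 29 bases of each are given with the site in capitals.
Ago2: acaaaggcacaGTGGCCAaggagatggtc
Tnrc6a: tttgagaaactGTGGCCAccgctgtgacc
Over all tested genes with a 3′ UTR, 13.4% of 15656 held the site, and the share was 43.0% among the 854 called lower in shPla2g4e, 7.1% among the 479 called higher and 11.9% among the 14323 not called. Called genes had longer 3′ UTRs, with a median of 1895 nt for those called lower and 1270 nt for those called higher, against 1074 nt for the rest. In coding sequences the site occurred in 25.3% of 15816 genes, among them Ago1, Dgcr8 and Tnrc6b with 2 sites each and Drosha and Xpo5 with 1 each. A match is a string of letters and was not tested as a site of binding.

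Between 17054717 and 23570180 reads were counted per library. Pla2g4e, the target, had 37.98, 35.08 and 35.39 in shCtrl replicates 1 to 3 and 21.83, 14.15 and 18.74 in shPla2g4e, as CPM, the reads of a gene divided by the TMM-scaled size of its library. The shPla2g4e libraries retained 50.5% of the shCtrl mean, and the log2 fold change was -0.98 ± 0.13 (SE, n = 3 per group, adjusted p = 0.000124 in edgeR's quasi-likelihood test). Among markers of the cultured cells, the neuronal genes Tubb3, Map2 and Rbfox3 and the astrocyte genes Aqp4 and Gja1 were called lower in shPla2g4e. The other markers of these lists were not called, with log2 fold changes of -0.62 for Gfap, -0.23 for Slc1a3, 0.19 for Aldh1l1, -0.04 for Syn1 and 0.26 for Snap25 (edgeR adjusted p = 0.0471, or 0.000353 when blocked by replicate). With the replicate block Gfap, at 6.26e-12, and Slc1a3, at 0.00125, were called lower. The 5 astrocyte markers summed to 1297 to 1927 CPM in shCtrl and 955 to 1601 CPM in shPla2g4e, the 5 neuronal markers to 3506 to 3704 and 2919 to 3277 CPM, and the 5 proliferation markers, of which Top2a was called lower, to 27.9 to 46.7 and 15.4 to 26.1 CPM. Mki67, another proliferation marker, was called lower by edgeR only with the replicate block (adjusted p = 1.51e-08), and by DESeq2 (adjusted p = 0.00132). Markers of microglia were near 0, with sums of 2.16 to 4.53 CPM in shCtrl and 2.13 to 3.10 CPM in shPla2g4e. Oligodendrocyte lineage markers, of which 4 of 5 were higher and edgeR called none without the replicate block and 1 lower with it, summed to 375.9 to 413.3 and 371.5 to 459.6 CPM. Markers of endothelial and mural cells summed to 13.1 to 24.9 CPM over all libraries. In bulk RNA, fewer cells of a type and less RNA per cell cannot be told apart, and the part of these marker differences in the values below was not tested.

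None of the 10 genes was called at an adjusted p of 0.01 by edgeR, where 6.49% of all genes tested were called, or 11.1% of the 10958 genes whose mean log2 CPM was 3 or more, the range in which all 10 lay. limma after voom called 0 of the 10, against 6.53% of all genes, and DESeq2 called Drosha, against 8.69% of all genes. That last share counts the 5514 genes without an adjusted p in DESeq2 as not called. At an adjusted p of 0.05, Drosha and Ago3 were called, 2 of 10 against 12.9% of all genes. At an unadjusted p of 0.05, 7 of the 10 passed, against 25.7% of all genes and 37.2% of those in the higher range. The groups did not overlap for 5 of the 10, namely Drosha, Ago1, Ago3, Ago4 and Tnrc6a, against 30.0% of all genes and 40.2% of those in the higher range. The labels do not say what a replicate number marks, and same-numbered libraries were taken as pairs from a correlation of their deviations. With the replicate number as a block edgeR called 4 of the 10, Drosha, Ago2, Ago3 and Tnrc6b. The block called 15.5% of all genes and 26.2% of those in the higher range. In shPla2g4e, 6 of the 10 had lower values and 4 had higher values. The median of their log2 fold changes was -0.07, beside 0.03 over all genes tested.

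**Figure D1:**
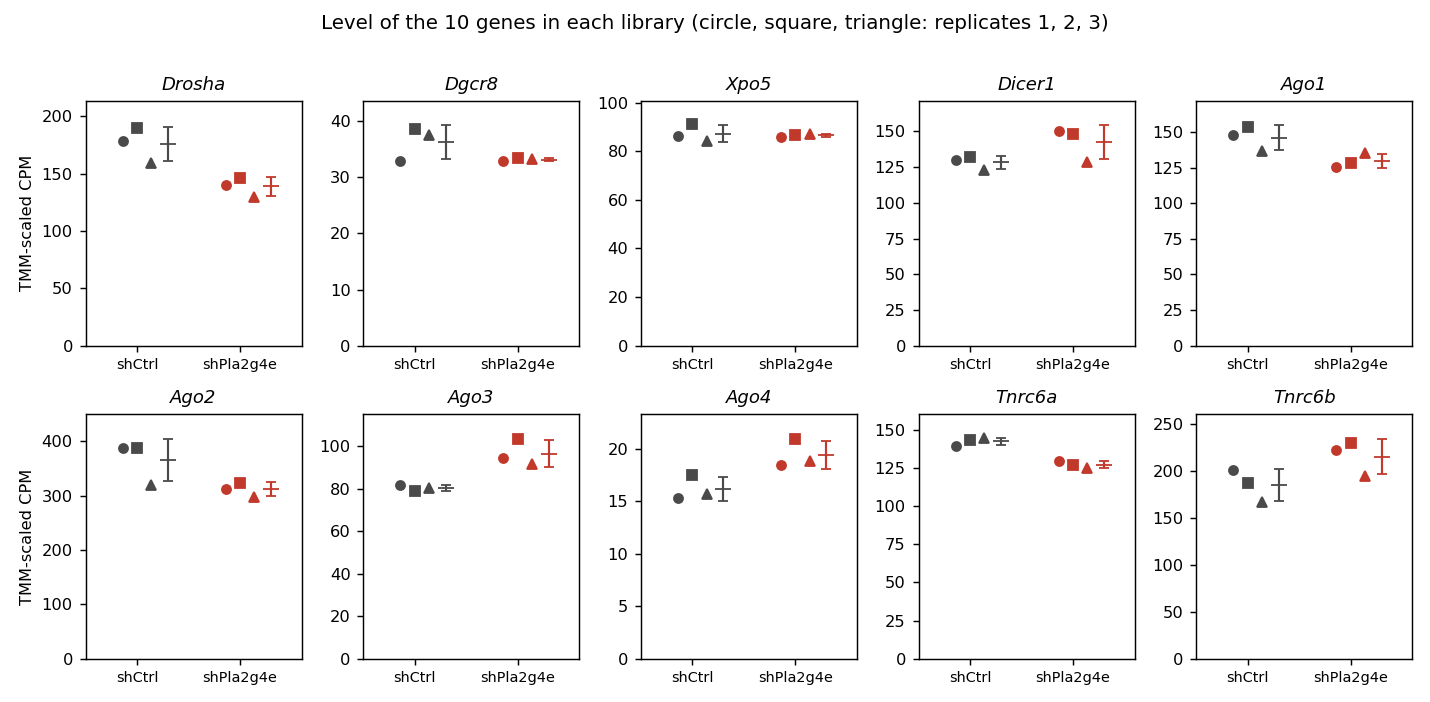
TMM-scaled CPM of each of the 10 genes in the 3 shCtrl (grey) and 3 shPla2g4e (red) libraries, with circles, squares and triangles for replicates 1, 2 and 3, and the mean with SD (n = 3) at the right of each group; every axis starts at 0. Drosha, Ago1 and Tnrc6a sat lower in every shPla2g4e library than in any shCtrl library and Ago3 and Ago4 higher, while the groups overlapped for the other 5 genes.

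Drosha, the RNase III that makes the first cut (chromosome 15, 12824901 to 12935377, plus strand, GRCm39), had the smallest p of the 10 genes. Its CPM was 178.7, 189.3 and 159.3 in shCtrl and 140.3, 146.5 and 129.9 in shPla2g4e. Every shPla2g4e library was below every shCtrl library, and within each group replicate 3 was the lowest. The mean was 21.0% lower (175.8 ± 15.3 against 138.9 ± 8.40 CPM, SD, n = 3), and the log2 fold change was -0.34 ± 0.085 (SE, 95% interval -0.52 to -0.16). The adjusted p was 0.0151 in edgeR, 0.0122 in limma and 0.00211 in DESeq2, so the call depended on the tool. In same-numbered libraries the log2 ratios were -0.35, -0.37 and -0.29, and with the replicate block the adjusted p of edgeR was 2.89e-05. Leaving out shCtrl replicate 3, the lowest control, brought the adjusted p of edgeR to 0.00489, and leaving out shCtrl replicate 2, the highest, brought it to 0.115.

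Dgcr8, which recognises the primary transcript together with Drosha (chromosome 16, 18071812 to 18107110, minus strand), was not called and its groups overlapped. Its CPM was 32.94, 38.60 and 37.52 in shCtrl and 32.92, 33.38 and 33.19 in shPla2g4e, and shCtrl replicate 1 lay among the shPla2g4e values. The log2 fold change was -0.13 ± 0.093 (95% interval -0.33 to 0.07, adjusted p = 0.42 in edgeR). The length-scaled ratio of Drosha to Dgcr8 was 7.03, 6.36 and 5.50 in shCtrl and 5.53, 5.69 and 5.07 in shPla2g4e. These also overlapped, though each shPla2g4e ratio was below its same-numbered control. Dgcr8 counts are the least certain of the set, since 10.7% of its exon bases lie opposite exons of Trmt2a, 6.42% overlap other genes of its own strand, 26.3% of its 50-base stretches recur in other genes, and the counting is not stated to use strand. Dgcr8 carries a pair of microRNA hairpins in its own exons, those of miR-1306 and miR-3618.

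Xpo5, the export receptor of the hairpins (chromosome 17, 46513708 to 46554524, plus strand), was the most even of the 10. Its CPM was 86.40, 91.24 and 84.27 in shCtrl and 86.08, 86.51 and 87.01 in shPla2g4e, with all shPla2g4e values inside the control range. The log2 fold change was -0.01 ± 0.076 (adjusted p = 0.945 in edgeR), and its 95% interval ran from 11.4% lower to 10.8% higher. The sign turned under 3 other settings and without shCtrl replicate 2.

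Dicer1, the cytoplasmic RNase III (chromosome 12, 104654001 to 104718211, minus strand), had 129.7, 132.0 and 123.3 CPM in shCtrl and 150.2, 148.3 and 128.7 CPM in shPla2g4e. The third shPla2g4e library fell within the control range, while the other two lay above it. In same-numbered libraries Dicer1 was higher in 3 of 3, and the log2 fold change was 0.15 ± 0.082 (95% interval -0.02 to 0.33, edgeR adjusted p = 0.274, or 0.104 when blocked by replicate).

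**Figure D2:**
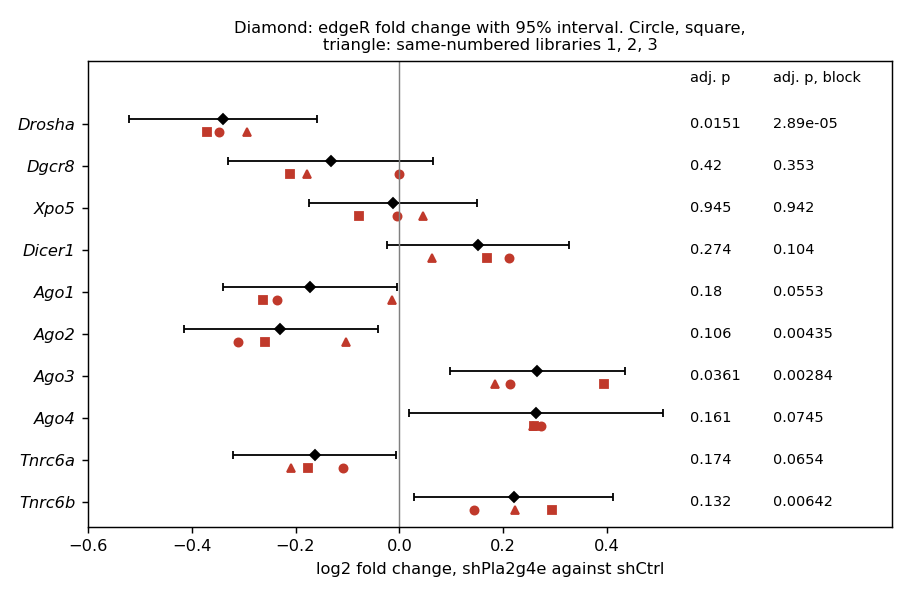
Log2 fold change of shPla2g4e against shCtrl for the 10 genes, with black diamonds and bars for the edgeR value and its 95% interval (n = 3 per group), red circles, squares and triangles for the ratios of same-numbered libraries, and the adjusted p without and with the replicate block at the right. The 3 paired ratios of Drosha, Ago2, Ago3 and Tnrc6b each lie on one side of 0, as do those of Dgcr8, Dicer1, Ago1, Ago4 and Tnrc6a.

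The 4 Argonaute genes did not share a direction, with lower values for Ago1 and Ago2 and higher values for Ago3 and Ago4 in shPla2g4e. Ago2 encodes the only mammalian Argonaute known for efficient cleavage of a fully paired target, the step on which an shRNA relies. Ago1, Ago3 and Ago4 lie next to each other on the minus strand of chromosome 4 (GRCm39), in the order Ago3 (126225497 to 126323349), Ago1 (126328805 to 126362376) and Ago4 (126383334 to 126427265), with gaps of 5.5 and 21.0 kb. Ago2 lies alone on chromosome 15 (72967693 to 73056784, minus strand). Neighbours in the cluster therefore had values on opposite sides of 0.

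Ago2 was at 387.4, 387.9 and 320.3 CPM in shCtrl and 312.4, 324.1 and 298.4 CPM in shPla2g4e. The groups overlapped only through shCtrl replicate 3 and shPla2g4e replicate 2. The log2 fold change was -0.23 ± 0.088 (95% interval -0.41 to -0.04, adjusted p = 0.106 in edgeR), with ratios of -0.31, -0.26 and -0.10 in same-numbered libraries and an adjusted p of 0.00435 with the replicate block. It was 1 of the 2 genes with an sh2 seed site in the 3′ UTR, shown above, and the part of that site in its value was not tested. Of the 50-base stretches of Ago2, 3.52% recur in other genes, most of them in Gm6088. Exons of Chrac1 lie opposite 1.56% of its exon bases.

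Ago1 was at 148.0, 153.6 and 136.4 CPM in shCtrl and 125.7, 128.1 and 135.0 CPM in shPla2g4e, and the groups were separated by the small step between the third libraries. The log2 fold change was -0.17 ± 0.079 (edgeR adjusted p = 0.18, or 0.0553 when blocked by replicate). Ago1 and Ago3 share 121 of their 50-base stretches, and in all 1.74% of the stretches of Ago1 and 0.78% of those of Ago3 recur in other genes.

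Ago3 was at 81.74, 78.81 and 80.67 CPM in shCtrl and 94.74, 103.6 and 91.70 CPM in shPla2g4e. The control libraries lay within 3 CPM of each other and all shPla2g4e libraries were above them. The mean was 20.2% higher, and the log2 fold change was 0.27 ± 0.079 (95% interval 0.10 to 0.43, edgeR adjusted p = 0.0361, or 0.00284 when blocked by replicate). Scaling by library size alone gave an adjusted p of 0.00884 in edgeR. Leaving out 1 library at a time moved the adjusted p to as much as 0.151, without shCtrl replicate 2.

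Ago4, the least abundant of the 4, was at 15.28, 17.46 and 15.72 CPM in shCtrl and 18.45, 20.90 and 18.80 CPM in shPla2g4e. Every shPla2g4e library was above every control, on 315 to 452 reads per library. The log2 fold change was 0.26 ± 0.11 (95% interval 0.02 to 0.51, edgeR adjusted p = 0.161, or 0.0745 when blocked by replicate).

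Levels of different genes were compared as CPM per kb of exon length. The 4 Argonaute genes summed to 52.97, 53.84 and 46.76 CPM per kb in shCtrl and 46.11, 48.13 and 46.14 in shPla2g4e. These sums overlapped only through shCtrl replicate 3, and each shPla2g4e sum was below its same-numbered control. Ago2 made up 52.1%, 51.4% and 48.8% of the sum in shCtrl and 48.3%, 48% and 46.1% in shPla2g4e. The share of Ago3 was 9.31%, 8.83% and 10.4% in shCtrl and 12.4%, 13.0% and 12% in shPla2g4e. For Ago2, Ago3 and Ago4 the shares of the groups did not overlap, with the first lower and the other two higher in shPla2g4e, whereas the share of Ago1 was 35.2% ± 0.757 in shCtrl and 34.1% ± 1.71 in shPla2g4e (SD, n = 3) and overlapped. The shares of a family have a fixed total, so a rise in any of them lowers the rest. These shares are descriptive and carry no test.

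**Figure D3:**
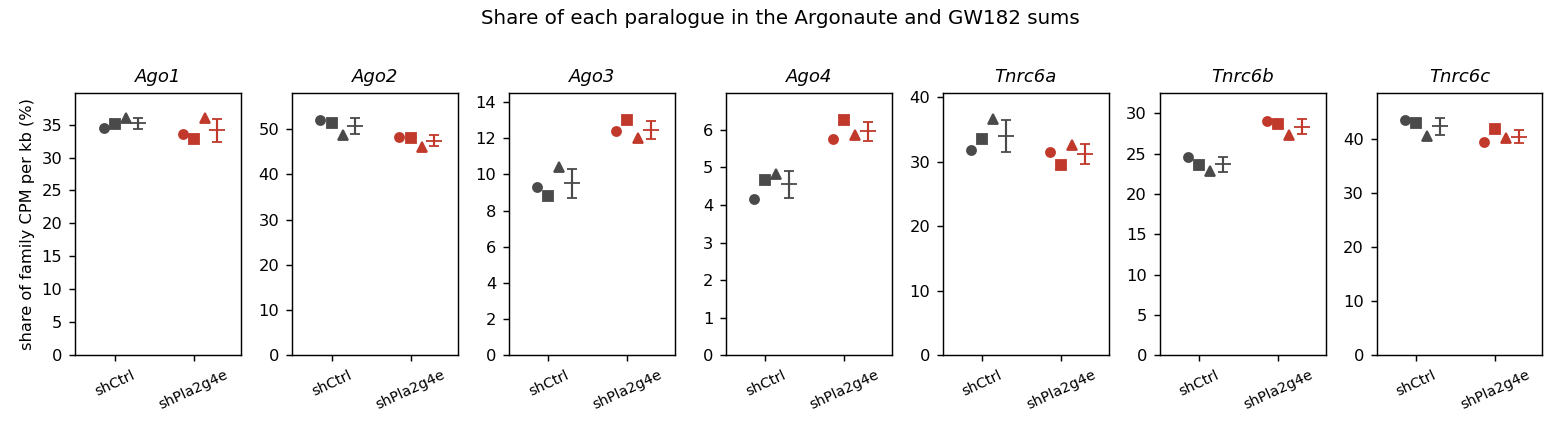
Share of each paralogue in the summed CPM per kb of its family, in percent, for the 4 Argonaute genes and the 3 GW182 genes in each library (grey shCtrl, red shPla2g4e, circles, squares and triangles for replicates 1, 2 and 3, mean with SD at the right of each group, n = 3); each axis starts at 0. The shares of Ago3, Ago4 and Tnrc6b were higher in every shPla2g4e library and that of Ago2 was lower.

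The GW182 genes, Tnrc6b on chromosome 15 (80595514 to 80825286, plus strand) and Tnrc6a on chromosome 7 (122723108 to 122794519, plus strand), also lay on different sides of 0. Tnrc6b was at 201.4, 187.3 and 167.1 CPM in shCtrl and 222.4, 229.8 and 194.9 CPM in shPla2g4e, which overlapped because shCtrl replicate 1 exceeded shPla2g4e replicate 3. The log2 fold change was 0.22 ± 0.090 (95% interval 0.03 to 0.41, adjusted p = 0.132 in edgeR), with ratios of 0.14, 0.29 and 0.22 in same-numbered libraries and an adjusted p of 0.00642 with the replicate block. Tnrc6a was at 139.7, 143.1 and 144.4 CPM in shCtrl and 129.7, 126.8 and 125.0 CPM in shPla2g4e, a narrow spread with no overlap. Its log2 fold change was -0.16 ± 0.074 (95% interval -0.32 to -0.01, edgeR adjusted p = 0.174, or 0.0654 when blocked by replicate). Tnrc6a was the other gene with an sh2 seed site in its 3′ UTR, and the part of the site was not tested. With Tnrc6c, the third paralogue, as part of the sum, the share of Tnrc6b was 23.7% ± 0.924 in shCtrl and 28.3% ± 0.918 in shPla2g4e with no overlap, while the summed level was 33 ± 1.85 and 32.1 ± 1.84 CPM per kb (SD, n = 3) and overlapped.

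Along the pathway the transcripts spanned more than a 10-fold range of length-scaled level in shCtrl. Drosha had the highest level at 29.6 ± 2.57 CPM per kb (SD, n = 3), at the 92.6th percentile of the genes tested, followed by Ago2 at 26.0 ± 2.77, Ago1 at 18 ± 1.1, Xpo5 at 12.7 ± 0.521 and Tnrc6a at 11.2 ± 0.190. Below them came Tnrc6b at 7.82 ± 0.728, Dicer1 at 7.66 ± 0.270, Ago3 at 4.85 ± 0.0895, Dgcr8 at 4.72 ± 0.391 and Ago4 at 2.33 ± 0.166, the last at the 50.5th percentile. Neighbours in this order overlapped between libraries for Drosha and Ago2, for Tnrc6b and Dicer1, and for Ago3 and Dgcr8, and the other neighbours did not overlap. In shPla2g4e, Drosha stood at 23.4 ± 1.41 and Ago2 at 22.2 ± 0.917 CPM per kb.

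The genes around this core were taken in 9 lists. Their counts of calls at an adjusted p of 0.01 are to be read beside the shares of all genes tested. These were 6.49% called by edgeR in either direction, 15.5% with the replicate block, 6.53% by limma and 8.69% by DESeq2. Among genes whose mean log2 CPM was 3 or more, edgeR called 11.1%, or 26.2% with the block. In that range 37.2% had an unadjusted p under 0.05 in edgeR. Of the 129 list genes with a 3′ UTR in the annotation, 15 held the sh2 seed site, including 3 of the 7 that were called lower.

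Among 21 tested factors of nuclear microRNA biogenesis, edgeR called 1 lower and none higher, limma called 2 and DESeq2 called 4. By value 14 were lower and 7 higher, with a median of -0.09 on the log2 scale. Khsrp, an RNA-binding protein that promotes the maturation of some microRNAs and the decay of AU-rich mRNAs, had 175.6, 163.7 and 142.2 CPM in shCtrl and 109.0, 108.6 and 103.9 CPM in shPla2g4e. Every shPla2g4e library was far below the lowest control, and Khsrp fell by 0.58 ± 0.087 on the log2 scale (SE, adjusted p = 0.000325 in edgeR). Its 3′ UTR held 1 sh2 seed site, whose part was not tested. Hnrnpa2b1, a reader of modified primary transcripts, and Adar, an editor of double-stranded RNA, were at -0.35 and -0.36 on the log2 scale with adjusted p of 0.0107 and 0.0163 in edgeR. DESeq2 called both, at 0.000286 and 0.00234, and limma called Hnrnpa2b1 at 0.00621 but not Adar at 0.014. With the replicate block 6 of the 21 were called lower and 1 higher, the last being Ran, the GTPase that Exportin-5 needs for its cargo.

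Among 13 Dicer partners and chaperones that load Argonaute, edgeR and limma called 0 of 13 at an adjusted p of 0.01 and DESeq2 called 1, with 3 at an unadjusted p of 0.05 in edgeR, where 25.7% of all genes passed. The smallest p belonged to Dnajb1, an Hsp40 co-chaperone, at -0.42 ± 0.11 on the log2 scale (edgeR adjusted p = 0.0149). Dnajb1 and Hsp90aa1, a form of Hsp90, were called lower with the replicate block, at 0.000152 and 0.00463. The median of the list was 0.01.

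Of the 29 genes of deadenylation, decapping and translational repression, the arm that GW182 recruits, edgeR called 2 lower and none higher. By value 15 were lower and 14 higher. Cnot1, the scaffold of the CCR4-NOT deadenylase, had 188.1, 178.0 and 175.1 CPM in shCtrl and 145.4, 134.1 and 124.2 CPM in shPla2g4e, and fell by 0.42 ± 0.081 on the log2 scale (adjusted p = 0.00253 in edgeR). The adjusted p of Cnot1 was 0.012 without shCtrl replicate 1 and 0.0173 without shCtrl replicate 2. Xrn1, the exonuclease that degrades decapped mRNA, had 59.77, 62.25 and 61.14 CPM in shCtrl and 47.93, 49.38 and 47.99 CPM in shPla2g4e, and fell by 0.33 ± 0.079 on the log2 scale, with an edgeR adjusted p of 0.01 barely inside the threshold. That call was lost without any 1 of the 6 libraries, at 0.0205 to 0.0598, and in edgeR under upper-quartile scaling, at 0.019, and library size alone, at 0.0427. Xrn1 held 2 sh2 seed sites in its 3′ UTR. With the replicate block 3 of the 29 were called in each direction.

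In the list of 10 genes of small RNA tailing and turnover, edgeR and limma called 0 of 10 and DESeq2 called 1, and 4 had an unadjusted p under 0.05 in edgeR, beside the 25.7% of all genes. Parn, a poly(A)-specific exonuclease that also trims small RNAs, had 51.76, 55.11 and 48.84 CPM in shCtrl and 65.92, 75.09 and 61.76 CPM in shPla2g4e. The groups did not overlap, and the 0.38 ± 0.091 log2 difference reached an adjusted p of 0.0107 in edgeR and 6.64e-05 when blocked by replicate.

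Of 12 neuronal RNA-binding proteins that work with Argonaute in RNA granules, edgeR called 2 lower and none higher. By value 8 were lower and 4 higher, and the median was -0.15 on the log2 scale. Stau1, a double-stranded RNA-binding protein of dendritic granules, had 97.02, 102.9 and 102.0 CPM in shCtrl and 76.00, 76.29 and 79.82 CPM in shPla2g4e, and fell by 0.38 ± 0.076 on the log2 scale (adjusted p = 0.00335 in edgeR). Pum2, a repressor that binds 3′ UTRs, had 204.7, 210.5 and 187.8 CPM in shCtrl and 158.5, 158.4 and 151.7 CPM in shPla2g4e, and fell by 0.36 ± 0.077 (adjusted p = 0.00522 in edgeR). The groups were well apart for both, but without shCtrl replicate 2 the adjusted p was 0.0288 for Stau1 and 0.0511 for Pum2. The call was also lost without shPla2g4e replicates 1 or 2 for Stau1, at 0.0223 and 0.0132, and without 4 other libraries for Pum2, at up to 0.0245. Scaling by library size alone also ended both calls, at 0.0137 for Stau1 and 0.0124 for Pum2. Stau1 held 1 sh2 seed site in its 3′ UTR and Pum2 held none. Fxr2, of the fragile X protein family, was higher by 0.30 ± 0.085 on the log2 scale (edgeR adjusted p = 0.0268, or 0.00031 when blocked by replicate), and with the block 3 of the 12 were called lower and 2 higher.

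Genes of the germline PIWI pathway were mostly low. Tdrkh stood at 43.1 to 50.7 CPM, with a log2 fold change of 0.01, and the other 9 tested genes at 8.78 CPM or less in every library. edgeR and limma called 0 of 10, and DESeq2 called 0 of the 6 for which it gave an adjusted p. The median log2 fold change was 0.63, with 8 of 10 higher, low genes included. Of the 10, 4 were below 1 CPM in every library. Mov10l1 and Piwil4, at 1.54 and 1.46 on the log2 scale, had 0 to 4 reads per control library. They reached the filter of 6 reads only in shPla2g4e, so the filter favoured their direction. An unadjusted p under 0.05 was found in edgeR for 4 of 10, beside 25.7% of all genes. Tdrd6, among these 4, was lower, at -0.66 on the log2 scale (edgeR adjusted p = 0.193). The helicase gene Ddx4, also among them, was at 2.75 to 3.01 CPM in shCtrl and 4.02 to 6.61 CPM in shPla2g4e (edgeR adjusted p = 0.0182). Tdrd9, a helicase gene of the same pathway, was at 0.970, 0.654 and 0.755 CPM in shCtrl and 2.13, 1.43 and 1.71 CPM in shPla2g4e, with no overlap (edgeR adjusted p = 0.0461, or 0.0239 when blocked by replicate). With the replicate block Ddx4, at 0.00119, and Piwil2, an Argonaute-family gene of the germline, at 0.0056, were called higher. Piwil2 had log2 ratios of 1.25, 0.76 and -0.10 in same-numbered libraries, so the pair of replicate 3 went the other way, and its edgeR adjusted p without the block was 0.0655. Of 12 tested sensors of double-stranded RNA and interferon response genes, which can react to an shRNA vector, edgeR called 0 of 12 with and without the replicate block and 0 at an unadjusted p of 0.05. limma called 0 of 12, and DESeq2 called 0 of the 7 for which it gave an adjusted p. The 5 others were below 1 CPM in every library, on 0 to 10 reads each, and these libraries resolve little there. The median over all 12, low genes included, was -0.22 on the log2 scale. Eif2ak2, the kinase PKR, was at 13.63, 13.94 and 14.78 CPM in shCtrl and 8.45, 12.85 and 13.03 CPM in shPla2g4e (edgeR adjusted p = 0.24). Tlr3, a receptor for double-stranded RNA, was at 5.87, 7.35 and 9.23 CPM in shCtrl and 3.56, 5.36 and 8.51 CPM in shPla2g4e (edgeR adjusted p = 0.395). The control vector was present in every library of the comparison group.

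**Figure D4:**
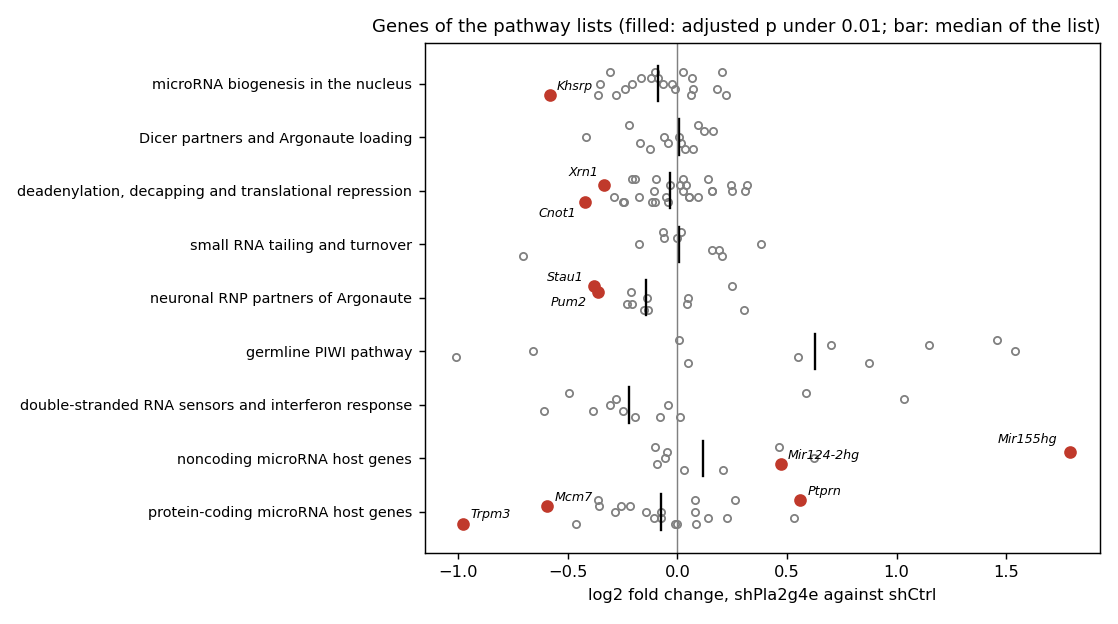
Log2 fold change of shPla2g4e against shCtrl for every tested gene of the 9 lists around the core machinery, 1 point a gene, with filled red points for genes at an adjusted p under 0.01 in edgeR (n = 3 per group), open points for the others, and a black bar at the median of each list. The 10 called genes are named, and 7 of them lie to the left of 0, beside 61.7% lower among all genes that edgeR called.

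Genes listed as hosts of microRNA hairpins made up the last lists. The RefSeq table placed a mature microRNA inside 9 of the 12 noncoding and 20 of the 22 protein-coding genes, and inside neither Mir124-2hg nor Ptprn. Mature microRNAs are not measured in poly(A) libraries, so these values are of the host RNA. Of 10 tested noncoding hosts edgeR called 2 higher, and limma and DESeq2 alike called 2. With the replicate block edgeR called 3 higher, Mir99ahg among them at an adjusted p of 0.00231. By value 4 were lower and 6 higher. Of 22 protein-coding hosts edgeR called 2 lower, Trpm3 and Mcm7, and 1 higher, Ptprn, while limma called 4 and DESeq2 called 6. With the replicate block 5 were called lower and 3 higher. By value 14 were lower and 8 higher. For the called hosts Mir155hg, Trpm3 and Mcm7, 1 arm of each hairpin, the one usually taken as the guide, is shown because these are products the machinery would make from these transcripts, with mature sequences from RefSeq (GRCm38.p6) and the seed, bases 2 to 8, in capitals.
mmu-miR-155-5p: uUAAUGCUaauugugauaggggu
mmu-miR-204-5p: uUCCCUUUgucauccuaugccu
mmu-miR-93-5p: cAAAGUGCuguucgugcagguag
mmu-miR-106b-5p: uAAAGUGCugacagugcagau
mmu-miR-25-3p: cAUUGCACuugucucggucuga
The seed of miR-93-5p and miR-106b-5p is the same, and miR-17-5p and miR-20a-5p of the Mir17hg host have it too, while miR-25-3p shares its seed with miR-92a-3p of that host.

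Mir155hg, which holds miR-155 in an exon on chromosome 16 (84714143 to 84714165, plus strand, GRCm38 for miR-155-5p), had 0.970, 1.86 and 1.51 CPM in shCtrl and 5.23, 6.10 and 3.66 CPM in shPla2g4e. It rose by 1.79 ± 0.28 on the log2 scale (adjusted p = 0.000539 in edgeR) on 20 to 132 reads per library, and the call held without each library in turn, at up to 0.00346. The microglial markers were at a like low level, summing to 2.13 to 4.53 CPM over all libraries. Of the 4 tested, 3 were lower and 1 was higher, Csf1r by 0.97 on the log2 scale (edgeR adjusted p = 0.188), and their part in the value of Mir155hg was not tested. Mir124-2hg, listed as a host by its name, had 51.03, 62.25 and 61.23 CPM in shCtrl and 89.05, 69.91 and 83.07 CPM in shPla2g4e, and rose by 0.47 ± 0.10 (adjusted p = 0.006 in edgeR), a call that was lost without shPla2g4e replicate 1, at 0.0478, and without any of the 3 controls, at 0.0105 to 0.0319.

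Trpm3, a cation channel gene that holds miR-204 in an intron on chromosome 19 (22750610 to 22750631, plus strand, GRCm38 for miR-204-5p), had 46.77, 49.52 and 44.40 CPM in shCtrl and 24.22, 21.27 and 26.00 CPM in shPla2g4e. The groups were far apart, and Trpm3 fell by 0.98 ± 0.099 on the log2 scale (adjusted p = 1.01e-05 in edgeR). Mcm7, a replication helicase gene that holds miR-25, miR-93 and miR-106b on chromosome 5 (minus strand), had 20.33, 24.26 and 18.96 CPM in shCtrl and 12.59, 15.81 and 13.65 CPM in shPla2g4e, and fell by 0.59 ± 0.13 (adjusted p = 0.00651 in edgeR). The proliferation markers were lower in shPla2g4e in 5 of 5 cases, with 1 call in edgeR and 2 with the replicate block or in DESeq2. Their part in the value of Mcm7 was not tested. The call of Mcm7 was lost without shCtrl replicates 1 or 2 or shPla2g4e replicate 1, at 0.016, 0.0575 and 0.0355, and in edgeR under upper-quartile scaling, library size alone and a filter of 10 reads in every library, at 0.0103, 0.0182 and 0.0106. Ptprn, a protein of dense-core vesicles, had 468.9, 440.3 and 410.3 CPM in shCtrl and 624.5, 634.3 and 686.2 CPM in shPla2g4e, and rose by 0.56 ± 0.081 (adjusted p = 0.000266 in edgeR).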

How the data were processed

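Total RNA of 3 shCtrl and 3 shPla2g4e cultures was made into stranded poly(A) libraries. The authors checked reads with FastQC 0.11.8, aligned them with STAR 2.7.0d, counted exonic reads with featureCounts 1.6.0 and deposited raw counts, 1 file per library, on GRCm39 coordinates, whereas the methods of the study name mm10 and Gencode M18. No strand or read-pair option is recorded, and reads of several genes or positions were left out. Identifiers of 52081 of 55357 genes matched a GENCODE vM21 symbol. The labels do not say that replicates were separate cultures, so p-values measure the spread between these libraries.

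edgeR 4.0.16 in R 4.3.3 (TMM, glmQLFit, glmQLFTest) was fitted to the 21876 genes that reached 6 reads in 1 or more libraries, with Benjamini-Hochberg adjustment and a threshold of 0.01; it was first tested on simulated data. limma 3.58.1 after voom, the test of the study, and DESeq2 1.42.0, which left 5514 genes without an adjusted p, were alternatives, with other scalings, filters, a robust fit, a threshold of 0.05, a replicate block and each library left out. Deviations of same-numbered libraries from their group means correlated at 0.189 to 0.461 over 10908 genes, against -0.393 to 0.108 for others. The label numbers were taken as pairs on this basis alone, since the labels do not say what a number marks. Within a group these deviations cancel out, so high values for same-numbered libraries lower those for the others. No libraries were duplicates. The 10 genes are all named, with Pla2g4e as the check of the target, and up to 3 genes of smallest adjusted p per list. Ran, Tdrkh, Tdrd6, Mov10l1, Piwil4 and some of the cell type markers were added after their values were seen. Genes and lists were chosen with earlier results of these data known.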

Additional observations from a re-analysis of the deposited data

How the results depend on the processing

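Over all genes, 1419 differentially expressed genes became 2349 with no filter on low counts, 1901 with DESeq2, 3395 with the replicate block, 2813 at a threshold of 0.05 and 685 to 1660 without 1 library. Of those called, 61.7% were lower, against 53.1% with upper-quartile scaling and 43.4% with library size alone, which moved the median over all genes from 0.03 to 0.10 on the log2 scale. None of the 10 machinery genes was called at first; DESeq2, library size alone, no filter and the robust fit called 1 each (Ago3 under library size alone, Drosha under the others), the replicate block 4, a threshold of 0.05 called 2, and leaving out 1 library 0 to 1. The other 9 kept their direction in 16 of 16 alternatives, but Xpo5 turned to 0.022 under upper-quartile scaling, 0.062 under library size alone, 0.006 with at least 10 reads in every library and 0.02 without shCtrl replicate 2 (range without 1 library -0.038 to 0.02). The 10 called list genes became 18 with DESeq2, 21 with no filter, 34 with the replicate block, 25 at 0.05 and 4 to 17 without 1 library. Khsrp, Mir155hg, Trpm3, Ptprn and Pla2g4e were called in 16 of 16. The causes were not tested. With 3 libraries a group, the 95% interval of the most even gene, Xpo5, still ran from -11.4% to 10.8%, and Mir155hg rested on 20 to 132 reads per library.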
